A study of Nicotiana tabacum with 12 samples.

Results

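HSP101 is a heat shock chaperone of tobacco, and its messenger RNA was followed here library by library in leaves of burley tobacco. It is 1 gene, LOC107799003, of the 61526 identifiers in the count table, and its name comes from the synonym that the RefSeq gene table of assembly ASM71507v2 gives for this identifier. It was chosen by its fitted difference between transgenic and untransformed leaves, one of the more marked among genes with a name in an earlier look at these counts. Its levels in the 4 groups are therefore a description and carry no p-value against untransformed plants.

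The study asked how carbon and nitrogen metabolism differ in burley tobacco, Nicotiana tabacum cultivar TN90, when a functional NtYb1 gene, also called EGY2, is added. The untransformed plants, CK in the labels, are wild type with no modification. The 3 transgenic groups, P2.4a, P3.9a and P9.10a, carry NtYb1 behind a 35S promoter, which is active in most plant tissues, and are green-stemmed segregants of primary transformants. Each of the 4 groups has 3 libraries, called biological replicates in the labels, from upper leaves frozen before maturity in 1 field experiment. Each line is named for its own primary transformant, and the text of the labels states no plant age. The transgene was not matched to a row of the counts, so the labels were not checked against it. The treatment text numbers the P3 plant differently from the titles and also describes root inoculation, and groups follow the titles. All groups share the TN90 background and the field.

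Hsp101 proteins, the plant cytosolic members of the ClpB family, form rings that thread tangled polypeptides out of aggregates, and they hand them to Hsp70 and its J-domain partner for refolding. In Arabidopsis and maize the gene is needed for plants to survive a severe heat stress after a mild one. Its transcript is among those that heat shock factors switch on, together with small heat shock proteins, Hsp70, Hsp90 and J-domain co-chaperones. In tobacco, the protein is also known to bind the leader of a tobamovirus RNA and to raise its translation. No protein or promoter sequence of HSP101 was used here.

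Totals ran from 13536964 to 18444571 counts per library. P3.9a replicate 1 stood apart from the others on the first principal component, at -77.4 where the other 11 libraries ran from -26.5 to 40.3. Leaf markers were high in every library: GAPA, GAPB, psbS, PSBR and a pair of Rca genes summed to 11000 to 13200 CPM (the count relative to the TMM-scaled library total) in CK and to 9040 to 14100 CPM in the transgenic libraries. The root marker TobRB7 lay at 0.472 to 1.93 CPM over all 12 libraries, while SEO1, SEO2 and COV1, markers of vascular tissue, summed to 175 to 221 CPM in CK and 205 to 246 CPM in the transgenic libraries. FUL1, FUL2 and SOC1, listed as flower markers, summed to 48.9 to 53.1 CPM in CK and 31.9 to 66.2 CPM in the transgenic libraries. Most of this was FUL1, at 47.1 to 51 CPM in CK and 30.7 to 63.8 CPM in the transgenic libraries. The trichome marker NtABS stood at 62.4 to 68.9 CPM in CK and 61.2 to 136 CPM in the transgenic libraries.

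HSP101 was highest in CK and lowest in P3.9a. In CK it stood at 345.2 CPM in replicate 1, 144.7 CPM in replicate 2 and 315.2 CPM in replicate 3, from 5622, 2608 and 4899 counts. Replicate 2 was thus well under the other CK libraries, and 3 transgenic libraries lay above it. In P2.4a the levels were 146.9, 192.4 and 98.46 CPM in replicates 1, 2 and 3, from 2266, 3079 and 1554 counts. In P3.9a they were 89.89, 57.49 and 88.14 CPM, from 1392, 892 and 1540 counts. In P9.10a they were 106.7, 147.6 and 82.95 CPM, from 1809, 2222 and 1077 counts. The highest transgenic library, P2.4a replicate 2, came next after CK replicates 1 and 3, and the lowest was P3.9a replicate 2.

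**Figure D1:**
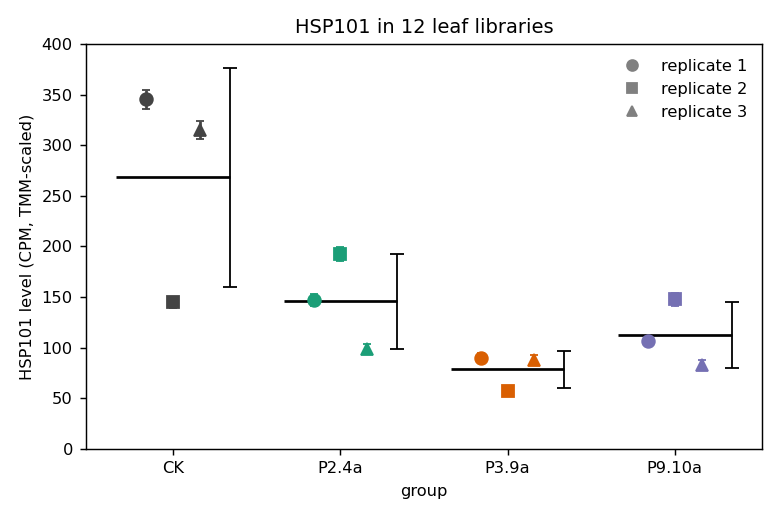
HSP101 level in CPM (vertical axis, linear from 0) in each of the 12 libraries by group, with the exact 95% Poisson interval of each count as a thin bar, and the group mean and SD over 3 libraries in black. CK replicate 2, at 144.7 CPM, lies among the transgenic libraries, while CK replicates 1 and 3 lie above all of them.

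The group means were, in the order CK, P2.4a, P9.10a, P3.9a, 268.4 ± 108.1 CPM (SD, n = 3), 145.9 ± 46.98, 112.4 ± 32.69 and 78.5 ± 18.22 CPM. No neighbours in that order were separated: P2.4a reached 192.4 CPM against a lowest CK library of 144.7, P9.10a reached 147.6 CPM against a lowest P2.4a library of 98.46, and P3.9a reached 89.89 CPM against a lowest P9.10a library of 82.95. P3.9a lay below all CK libraries in 3 of 3, a position that 6.61% of the 39207 genes tested also took, and below all P2.4a libraries by 8.572 CPM. Of the 9 transgenic libraries, 6 lay below every CK library, and 15.3% of tested genes had at least 6 of 9 there. Without CK replicate 2 the count was 9 of 9. That library was the lowest of CK, so leaving it out can only raise the count. The share of all genes was not taken in that setting. In bulk leaf RNA, fewer cells of a type that express HSP101 and less HSP101 RNA per cell cannot be told apart.

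The fitted log2 difference of HSP101 was -0.88 (SE 0.34) in P2.4a against CK, -1.77 (SE 0.35) in P3.9a and -1.26 (SE 0.34) in P9.10a, values that share the CK libraries. On the linear scale the CK mean was 1.84-fold, 3.42-fold and 2.39-fold the mean of these lines. For the mean of the 3 lines the difference was -1.30 (SE 0.26), and 0.242% of tested genes had a value this low or lower. Leaving out a CK library moved it most: without CK replicate 2 it was -1.60 and without CK replicate 1 it was -1.08, while the fit without P3.9a replicate 1, the library that stood apart, gave -1.33. The trichome marker NtABS lay in the opposite order by line. It rose in P3.9a (log2 difference 0.92, edgeR adjusted p = 0.0413), where 0.0357% of tested genes passed. Its values in P9.10a and P2.4a were 0.72 and 0.18 (edgeR adjusted p = 0.198 and 0.688). Pearson's r of its log2 CPM with that of HSP101 was -0.69 over the 12 libraries. With each group's mean removed it was 0.23, so within groups NtABS did not run opposite to HSP101. Of the vascular markers, SEO1 and SEO2 had r with HSP101 of -0.57 and -0.76 over the 12 libraries, and -0.66 and -0.75 within groups. For COV1 these were -0.03 and 0.20. The part of NtABS-bearing or vascular cells in the HSP101 difference was not tested.

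**Figure D2:**
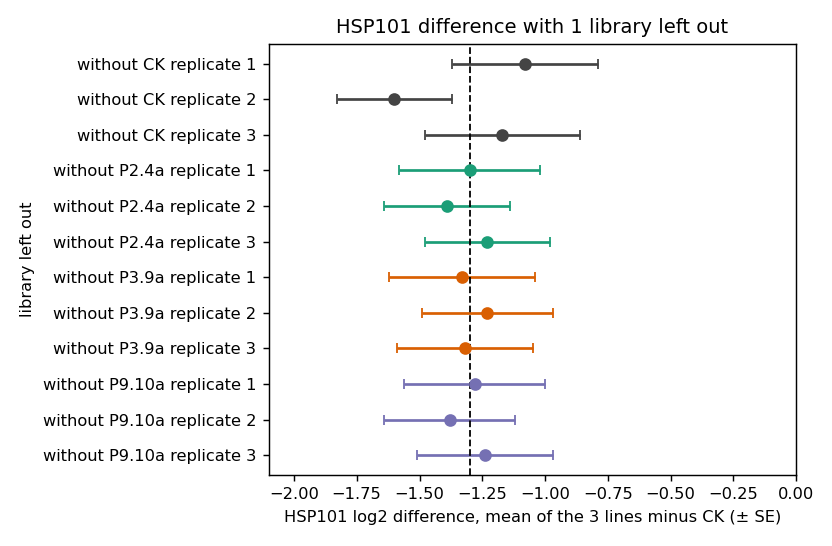
Fitted HSP101 log2 difference, mean of the 3 lines minus CK, with its SE (horizontal axis), in fits that each leave out 1 library (vertical axis), coloured by the group of that library. The dashed line marks -1.30, the value with all 12 libraries, and the lowest value, -1.60, and the highest, -1.08, both come from fits that leave out a CK library (replicates 2 and 1).

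Differences of HSP101 among the lines were not used in choosing the gene and could be tested. The F test among the 3 lines gave an unadjusted p of 0.067 and an edgeR adjusted p of 1, with 0.00765% of all tested genes past the threshold of 0.05. An exact permutation test of the log2 CPM over the 9 transgenic libraries gave p = 0.1, where the smallest it can give is 0.00357. P2.4a stood 0.89 above P3.9a on the log2 scale (SE 0.34, 95% interval 0.15 to 1.64, unadjusted p = 0.0226), with 3 of 3 P2.4a libraries above all P3.9a libraries, and this did not pass over all genes (edgeR adjusted p = 0.926; 0.0051% of genes passed in this pair). All 3 P2.4a libraries were above P3.9a in 3.92% of tested genes. The exact two-sided permutation p for that pair was 0.1, the smallest that 3 against 3 allows, and 0.3 adjusted over the 3 pairs. P2.4a and P9.10a differed by 0.38 (SE 0.34, 95% interval -0.36 to 1.12) and P3.9a and P9.10a by -0.52 (SE 0.34, 95% interval -1.26 to 0.23). Neither passed (edgeR adjusted p = 1 and 0.999), where 0.00255% and 0.0051% of all tested genes did. Differences up to these bounds between the lines are not excluded by 3 libraries each.

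HSP101 varied widely between libraries of the same group. The highest library was 2.38-fold the lowest in CK, 1.95-fold in P2.4a, 1.78-fold in P9.10a and 1.56-fold in P3.9a. As a coefficient of variation this was 40.3%, 32.2%, 29.1% and 23.2%, where counting error alone gives 1.51% to 2.80%. Counting error was thus a small part of the spread. Within groups the SD of HSP101 was 0.504 in log2 CPM, against a median of 0.233 over all tested genes, and 90.1% of tested genes had a smaller one. Among the 1901 genes within 1 log2 of the HSP101 level the median was 0.198, and 96.9% had a smaller SD. In CK the SD was 0.689 and 96.7% of genes were below it, and in P3.9a it was 0.364 and 71.2% were below it.

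The other heat shock genes that have a symbol or synonym in the RefSeq table were compared in the same way. Of the 49014 identifiers found in that table only 1081 had such a name, so heat shock genes without one are not covered. The list, taken from symbols and synonyms, has 14 genes beside HSP101, and all 14 were tested. None passed in the mean of the 3 lines in edgeR, where 0.0383% of all tested genes passed. At an unadjusted p under 0.05 stood 6 of 14, against 11.4% of all tested genes. Of the 14, 4 were lower and 2 higher, against 6.76% and 4.6% of all tested genes. DESeq2 called 1 of the 14, dnaJ, and 1.15% of all tested genes, and limma called 0 and 0.0255%. The list did not lie on 1 side: the 8 genes other than luminal binding proteins had a median log2 difference of -0.48 and the 6 luminal binding protein genes had 0.68, against 0.002 over all tested genes.

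The gene of this list whose levels were most like those of HSP101 was dnaJ (LOC107763704), a J-domain co-chaperone that delivers clients to Hsp70. It stood at 413, 221 and 482 CPM in CK replicates 1, 2 and 3, at 241, 276 and 126 CPM in P2.4a, at 129, 107 and 188 CPM in P3.9a and at 160, 208 and 141 CPM in P9.10a. As for HSP101, CK replicate 2 was the low CK library, and 7 of 9 transgenic libraries lay below it, where 9.32% of tested genes had at least 7. The fitted difference was -1.11 (SE 0.26, edgeR adjusted p = 0.120), with -0.80, -1.40 and -1.13 in P2.4a, P3.9a and P9.10a.

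Nthsp26a (LOC107764596), a small heat shock protein of the kind that holds unfolding proteins until a disaggregase and Hsp70 act, spread more than HSP101. Its levels were 120, 23.1 and 72.0 CPM in CK, 39.1, 42.2 and 16.4 CPM in P2.4a, 34.1, 5.28 and 4.18 CPM in P3.9a and 19.1, 33.5 and 16.7 CPM in P9.10a. The difference of -1.69 (SE 0.63) did not pass (edgeR adjusted p = 0.361), and it was -1.10 without CK replicate 1 and -2.22 when P3.9a replicate 1 was left out. NtHSF1 (LOC107810899), a heat shock factor, stood at 15.2, 7.21 and 14.7 CPM in CK and between 5.77 and 10.1 CPM in the transgenic libraries, with -0.73 (SE 0.20, edgeR adjusted p = 0.173). Without CK replicate 2 it passed, at -1.01 (edgeR adjusted p = 0.0307), in a fit in which 0.121% of genes passed. The other heat shock factor of the list, NtHSF2 (LOC107831180), stood between 11.8 and 17.0 CPM in all 12 libraries, with 0.02 (SE 0.12).

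NtHsp70, HSP70-3, hsp90 and ROF1 gave differences of smaller size than HSP101, dnaJ and Nthsp26a. NtHsp70 (LOC107795135) had -0.22 (SE 0.17), HSP70-3 (LOC107766295) -0.32 (SE 0.20) and hsp90 (LOC107770659) -0.39 (SE 0.23), with edgeR adjusted p from 0.566 to 0.666. ROF1 (LOC107824095) is an immunophilin gene to which the table gives the synonyms ROF1 and ROF2, names of separate Arabidopsis genes, so the name does not fix its role. It had -0.56 (SE 0.24, edgeR adjusted p = 0.408). Without CK replicate 1 the differences of ROF1, hsp90 and NtHsp70 were -0.30, -0.25 and -0.06. P3.9a replicate 1 was the highest P3.9a library for hsp90 and for HSP101, by unlike amounts. There hsp90 stood at 1530 CPM, its highest of the 12 libraries, against 732 and 975 CPM in the other P3.9a libraries. HSP101 stood at 89.89 CPM there against 57.49 and 88.14.

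The luminal binding proteins, or BiPs, are Hsp70 proteins of the endoplasmic reticulum and are known as targets of the unfolded protein response. All 6 genes had values above 0 in the mean of the 3 lines, from 0.14 (BIP5) to 0.78 (BIP4), as did 50.3% of all tested genes, and none passed in edgeR. BIP5 was at 0 without CK replicate 2. BIP1 (LOC107805460) stood at 43.7, 36.5 and 28.4 CPM in CK, at 61.6, 105 and 57.0 CPM in P2.4a, at 22.0, 56.3 and 77.2 CPM in P3.9a and at 62.0, 41.4 and 65.7 CPM in P9.10a. P3.9a replicate 1 was its lowest library, and 7 of 9 transgenic libraries lay above all CK libraries, where 8.33% of tested genes had at least 7. Without P3.9a replicate 1, BIP3 (0.82) and BIP4 (0.92) passed in edgeR (adjusted p = 0.0181 and 0.043), in a fit in which 740 genes (1.87%) passed. All 6 BiP genes were lowest in P3.9a replicate 1 and highest in P2.4a replicate 2. Reads of such close relatives could be split between them, depending on the counting rule, which the labels do not state.

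**Figure D3:**
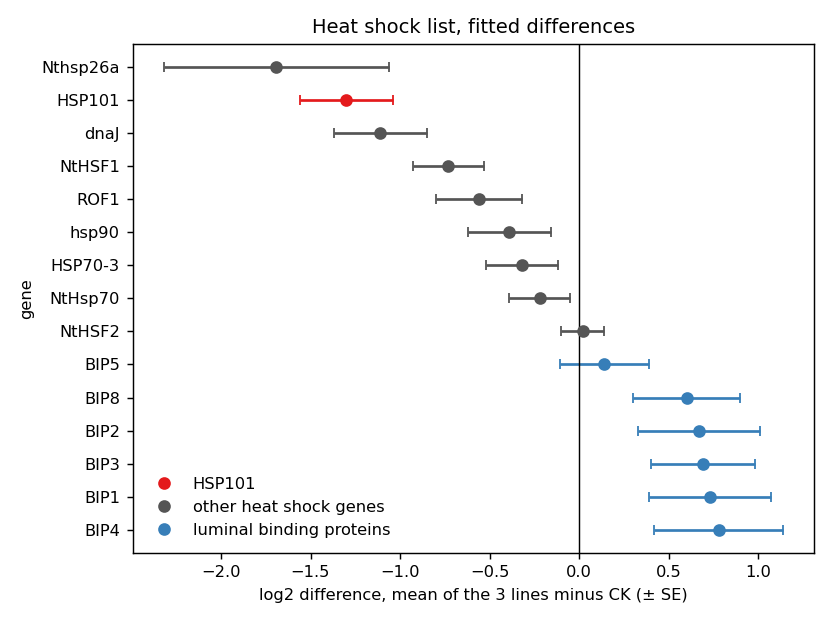
Fitted log2 difference, mean of the 3 lines minus CK, with its SE (horizontal axis) for HSP101 and the 14 other genes of the heat shock list (vertical axis). HSP101 at -1.30 lies between Nthsp26a at -1.69 and dnaJ at -1.11, while the 6 BiP genes lie above 0, from 0.14 to 0.78.

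The comparisons of the list line by line share the CK libraries. In P2.4a, where 0.00765% of all tested genes passed in edgeR, none of the 14 did. At an unadjusted p under 0.05 were 7 of 14, against 10.3% of all tested genes. These were 5 BiP genes, higher (4.7% of all tested genes), and dnaJ and NtHSF1, lower (5.63%). In P3.9a, where 0.0357% of tested genes passed, none of the 14 did, and 4 of 14 had an unadjusted p under 0.05, against 8.57%, all of them lower (4.83%). In P9.10a, where 0.0128% passed, none of the 14 did, and 2 of 14 had an unadjusted p under 0.05, against 7.17%, both of them lower (4.39%). DESeq2 called dnaJ in P3.9a, where it called 0.622% of all tested genes, and none of the 14 in P2.4a and P9.10a, where it called 0.352% and 0.383%. In P2.4a, P3.9a and P9.10a limma called 0 of the 14, and 0.00255%, 0.0153% and 0.0102% of all tested genes.

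Genes with the pattern most like HSP101 were ranked by Pearson's r of log2 CPM over the 12 libraries, among 33204 genes of sufficient level. The points share the 12 libraries, their scaling and the group difference for which HSP101 was chosen. The closest was LOC107767950, with r = 0.996 and Spearman's rho of 0.99. It stood at 266, 112 and 265 CPM in CK, 123, 142 and 86.2 CPM in P2.4a, 72.5, 48.9 and 74.6 CPM in P3.9a and 87.4, 123 and 70.1 CPM in P9.10a. Its counts were 0.736 to 0.876 of those of HSP101 in every library, with a coefficient of variation of 4.92%, a ratio not corrected for length. Near-identical copies could share reads under the counting used, no sequences were compared, and the part of such sharing in this likeness was not tested. The reference table lists it as protein-coding and gives it no further name. Its log2 difference was -1.26 (SE 0.25), which follows in part from its choice by r with HSP101 and carries no p-value here.

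The next in rank were LOC107783869, LOC107786233, LOC107765261, LOC107772193, LOC107816471, LOC107766372, dnaJ, LOC107808000 and LOC107781113, with r from 0.97 down to 0.95. Over all 33204 genes the median r was 0.011, and 66 genes were over 0.9. LOC107765261 ran from 51.2 CPM in P3.9a replicate 2 to 689 CPM in CK replicate 1, and LOC107783869 from 1.10 to 23.2 CPM in the same libraries, so both spanned more than HSP101 did. Without CK replicates 1 and 3, the 2 libraries farthest from the HSP101 median, r over the other 10 was 0.99 for LOC107767950, 0.91 for dnaJ and 0.89 to 0.93 for the other genes in this ranking. Other heat shock genes fell more: NtHSF1 from 0.90 to 0.71, Nthsp26a from 0.87 to 0.76 and ROF1 from 0.84 to 0.70. HSP70-3 fell from 0.57 to 0.44, hsp90 from 0.53 to 0.25 and NtHsp70 from 0.55 to 0.25. For NtHSF2 and the 6 BiP genes r rose, to between 0.11 and 0.26. By Spearman's rho 4 of the 10 genes most like HSP101 remained among the first 10, and with 1 library left out 6 to 9 did. The lowest r were those of LOC107789397 (-0.92), LOC107765921 (-0.90) and LOC107817367 (-0.88). LOC107789397 lay above all CK libraries in 9 of 9 transgenic libraries, as did 0.9% of tested genes. It stood at 70.8 to 82.2 CPM against 55.5 to 66.9 CPM in CK, with a log2 difference of 0.30. This gene was picked by its r with HSP101 over these same libraries. Its place against CK follows in part from that choice and is a description.

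**Figure D4:**
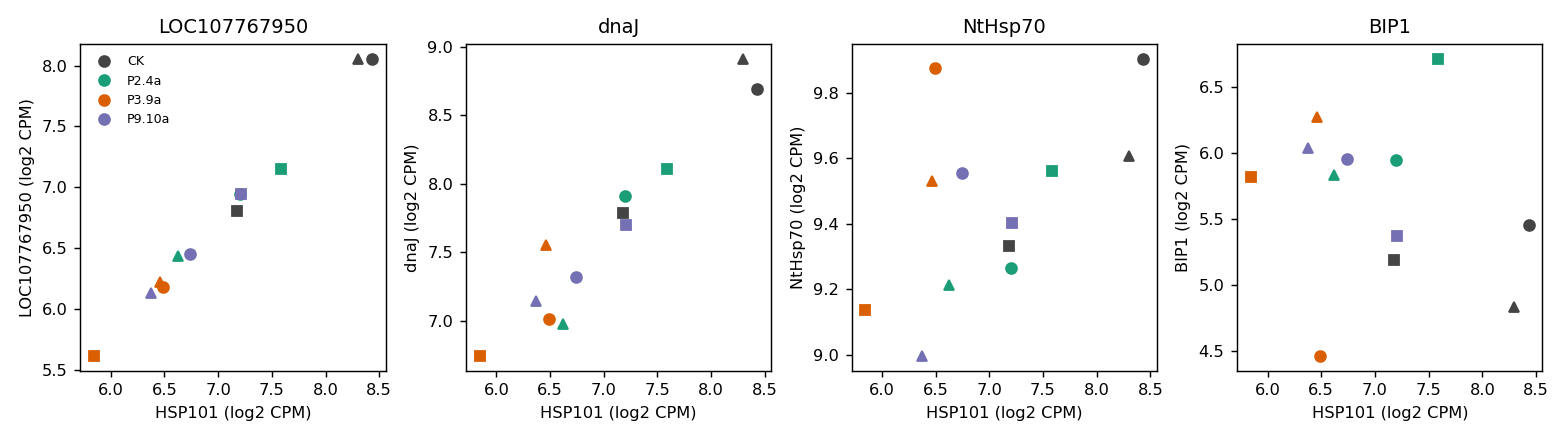
Log2 CPM of LOC107767950, dnaJ, NtHsp70 and BIP1 (vertical axes) against that of HSP101 (horizontal axis) in the 12 libraries, with group shown by colour and replicate number by shape (circle, square and triangle for 1, 2 and 3). The first gene follows HSP101 with r = 0.996 and dnaJ with 0.96, NtHsp70 with 0.55, where P3.9a replicate 1 (939 CPM) lies above the other P3.9a libraries (563 and 740 CPM), and BIP1 with -0.21.

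With each group's mean removed, so that only differences between libraries of the same group remained, LOC107767950 again came first (r = 0.99, rho 0.96). Among the first 10 in this ranking, 6 were shared with the ranking over all libraries. The other 4, LOC107781766, LOC107829604, LOC107814059 and LOC107760431, had r of 0.94 to 0.96 within groups, and log2 differences from CK of -0.10, -0.14, -0.19 and 0.15 for the mean of the lines. These genes were picked by their r within groups over these same libraries, so their likeness to HSP101 there is a description. Their differences between groups were small. LOC107760431 had only 38 to 63 counts per library. The ranking within groups was less stable, with 4 to 8 of the 10 genes remaining with 1 library left out. In CK replicate 1 the first of them, LOC107781766, stood at 131 CPM and in CK replicate 2 at 104 CPM. The genes picked for the lowest r within groups ran the opposite way: LOC107813034 had r = -0.96, LOC107812236 -0.94 and LOC107816952 -0.94. Of the 33204 genes, 13 had an r within groups below -0.9 and 50 one over 0.9. LOC107813034 stood at 11.8, 15.9 and 12.7 CPM in CK replicates 1, 2 and 3, so it was highest in the library where HSP101 was lowest, and its difference between groups was 0.01.

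Within each group the order of the libraries could be read directly. HSP101 was lowest in replicate 2 of CK, replicate 3 of P2.4a, replicate 2 of P3.9a and replicate 3 of P9.10a. dnaJ and NtHsp70 were lowest in these same libraries in 4 of 4 groups, as were 1.59% of all other tested genes. Nthsp26a, hsp90 and NtHSF1 were so in 3 of 4, as were 11.4% of the other genes. HSP70-3, NtHSF2 and ROF1 were so in 2 of 4, as were 29.5%, and the BiP genes in 0 or 1 of 4. For heat shock genes the r within groups was 0.91 for dnaJ, 0.86 for NtHSF1, 0.78 for NtHsp70 and 0.77 for ROF1. It was 0.73 for Nthsp26a, 0.64 for hsp90, 0.21 for HSP70-3 and -0.39 for NtHSF2. For the BiP genes it ran from -0.14 to 0.16. Each r within groups comes from 12 deviations with 4 group means removed, of which 8 are free. Thus NtHsp70, with a difference of -0.22 between groups, followed HSP101 within groups (0.78) more closely than over all libraries (0.55).

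Among the 836 genes of this ranking that have a symbol or synonym, those after dnaJ in the ranking over 12 libraries were GolS1, a galactinol synthase (r = 0.93, rho 0.89), NtHSF1 (0.90) and Nthsp26a (0.87). This view of named genes was added after the values were seen. In Arabidopsis, a galactinol synthase gene of the same name is itself a target of heat shock factors. Within groups the named genes after dnaJ were NtLTP3, a lipid transfer protein (0.90), NtHSF1 (0.86) and cat3, a catalase (0.84).

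The genes beside HSP101 in the reference assembly were set against it. LOC107799002 and LOC107799005, its nearest neighbours on either side, had log2 differences of 0.15 (SE 0.10) and 0.14 (SE 0.14) for the mean of the lines. Their r with HSP101 was -0.43 and -0.52. Over the 3 neighbours on each side the values ran from -0.36 to 0.24, with edgeR adjusted p from 0.366 to 0.954, and LOC107799006, at 44 to 84 counts per library, had the highest r, 0.80. The r of the other neighbours ran from -0.52 to 0.10.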

How the data were processed

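Raw gene-level read counts, as the authors deposited them, were used for 12 leaf libraries. HISAT2 2.1.0, SAMtools and bedtools 2.25.0 are named in the submitters' processing notes, and the sources used here do not state the build, annotation, counting rule or use of strand. Coordinates are therefore left out, and reads of near-identical copies, common in this allotetraploid, could be split. Of 61526 identifiers 49014 were in the reference table and 1081 had a name. Counts were fitted with edgeR 4.0.16 in R 4.3.3 (TMM, filterByExpr with a minimum count of 10, robust quasi-likelihood, Benjamini-Hochberg threshold 0.05), all 12 libraries in 1 fit, with 8 residual degrees of freedom and 39207 genes. CPM are TMM-scaled; log2 CPM has a prior count of 2. Intervals on counts are exact Poisson intervals at 95% and cover counting error only. Alternatives were DESeq2 1.42.0, limma 3.58.1 with voom, RLE factors, no filter, a replicate block, 6 libraries per line and each library left out. No pair of libraries was identical (lowest chi-square per degree of freedom 5.09).

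HSP101, the heat shock list and the tests were chosen with earlier results of these data known. Named genes are the list, by symbol or synonym, and the 10 genes with the highest and 3 with the lowest r with HSP101 at a mean log2 CPM of 1 or more, over libraries and within groups. Sequence-based homologues were planned and not analysed here. P-values measure the spread between libraries of 1 field experiment; the labels do not state how many plants went into each library.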

Additional observations from a re-analysis of the deposited data

How the results depend on the processing

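The HSP101 differences from CK kept their sign and moved by less than the spread between libraries in all 18 alternatives for each contrast. With 1 library left out they ran from -1.6 to -1.08 for the mean of the lines, from -1.18 to -0.66 in P2.4a, -2.07 to -1.55 in P3.9a and -1.55 to -1.03 in P9.10a. Library totals without scaling, added after seeing the data, gave -1.22 for the mean and 7 of 9 transgenic libraries below all CK libraries. With TMM scaling, 9.32% of tested genes had at least 7 of 9 there. The differences of HSP101 among lines did not pass in any of 17 alternatives (edgeR, DESeq2 or limma adjusted p of 0.6 or more). The count of genes past the threshold moved much more: for the mean of the lines 15 became 449 in DESeq2, 82 without a filter and 4 with the replicate block, and 6 to 740 with 1 library left out. In P2.4a 3 became 138 in DESeq2, 1 in limma, 238 on 6 libraries and 0 to 56 with 1 left out. In P3.9a 14 became 244 in DESeq2, 33 without a filter, 6 in limma, 4 with the block, 3 on 6 libraries and 5 to 105 with 1 left out. In P9.10a 5 became 150, 9 without a filter, 16 on 6 libraries and 1 to 12 with 1 left out. Among lines 3 became 46 in DESeq2 and 2 to 6 with 1 left out. The cause was not tested. Of the list, 1 gene passed in DESeq2 and 0 to 2 with 1 library left out. NtHSF2 (0.02) turned to -0.08 when CK replicate 3 was left out and to -0.02 when P9.10a replicate 3 was, within -0.08 to 0.12. BIP5 (0.14) was 0 without CK replicate 2 and ran up to 0.34.

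The replicate numbers are not said to mark a shared plot. Of same-numbered pairs of libraries, 4 of 18 correlated over 0.1 in their deviations, and of differently numbered pairs 12 of 36 did. The same number correlated best in 10 of 36 cases, each a choice among 3 libraries. With the replicate block HSP101 stayed at -1.3 for the mean of the lines. The homologue comparison was not run. At these depths counting error was small against the spread between libraries.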
